A study of Mus musculus with 15 samples.

Results

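Of the 15 mouse lines in the series, the 10 described here were made with the same 4 reprogramming factors, Oct4 (gene Pou5f1), Sox2, Klf4 and Myc (OSKM), and differ in the virus that carried them. The 5 retroviral OSKM lines (replicates 1 to 5) each grew from a single cell that had switched on an Oct4-EGFP reporter, so each is 1 clone. The 5 lentiviral OSKM lines (replicates 1 to 5) were stable lines past passage 11, each from its own preparation of mouse embryonic fibroblasts. The remaining 5 lines (lentiviral SKM), whose lentiviruses lacked Oct4, enter as side-by-side values. All lines carry the CD1 genotype label and are described as induced extraembryonic endoderm (iXEN) lines.

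The labels do not tell the same story throughout. The titles of the lentiviral lines begin with IPS, all but the first of the lentiviral OSKM lines have a pluripotent cell type label, and the treatment field of some lines names embryonic stem cells as the source, whereas the series text names fibroblasts. Nothing states whether the retroviral clones came from separate fibroblast preparations, nor their passage, so p-values measure the spread between lines. The retroviral and lentiviral libraries also carry different library series names (RA01 and RA02), so delivery, library series and any difference in derivation or passage cannot be told apart.

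Extraembryonic endoderm is the sheet of cells that lines the early mammalian embryo's yolk sac. Its parietal branch secretes the thick Reichert's membrane, made of laminin and type IV collagen, and its visceral branch absorbs and carries nutrients. Retroviral and lentiviral vectors both insert into the host genome. Retroviral promoters are commonly silenced in pluripotent cells, and foreign nucleic acid can induce interferon-stimulated genes in many cell types.

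RNA was read as counts per gene and is given as CPM, counts scaled to library size with TMM factors. Libraries held 34916933 to 46995817 counts in genes in retroviral lines and 64348250 to 73405134 in lentiviral OSKM lines. A count of 0 therefore allows up to 0.0848 CPM in the shallowest retroviral library and up to 0.0439 CPM in the lentiviral ones (3 counts per library, counting error only). Fewer cells of a type and less RNA per cell cannot be told apart in such bulk samples. Reads with no unique alignment made up 4.93% to 7.35% of retroviral and 4.15% to 4.97% of lentiviral OSKM library entries. Of 43432 gene identifiers, 21551 are protein-coding in the annotation, and 12963 of these had enough counts to be tested.

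Endoderm markers were present in both groups. All 12 regulators of extraembryonic endoderm and all 19 parietal endoderm genes averaged above 1 CPM in both groups. Gata4, a transcription factor of this lineage, lay at 824, 949, 559, 840 and 1360 CPM in retroviral replicates 1 to 5 and at 1250, 1160, 709, 1040 and 978 CPM in lentiviral OSKM replicates 1 to 5. The groups overlapped, with retroviral replicate 3 lowest and retroviral replicate 5 highest. Of 22 pluripotency genes, 12 could be tested, 6 were higher and 6 lower in retroviral lines, and the median log2 fold change was 0. By level, 10 of the 22 averaged above 1 CPM in retroviral and 9 in lentiviral OSKM lines, among them the RNA-binding protein gene Lin28a, with means of 473 and 354 CPM, while Nanog, a core factor of pluripotency, did not pass 2.08 CPM in any of the 10.

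Several lines stood apart. Xist, the RNA that silences one X chromosome in female cells, measured 1540, 1030, 3.73, 2070 and 8.3 CPM across lentiviral OSKM replicates 1 to 5. It reached at most 5.54 CPM in the retroviral lines. The Y-linked Ddx3y was at 5.91 CPM in retroviral replicate 1, 12.2 CPM in lentiviral OSKM replicate 3 and at most 0.0997 CPM elsewhere among these 10 lines. Other Y-linked genes differed from Ddx3y in lentiviral OSKM replicate 5, with Eif2s3y at 5.4 and Uty at 1.32 CPM, though Kdm5d was at 0 CPM. Retroviral replicate 1 had 4.22, 1.58 and 2.75 CPM of these 3 genes. The part of these X-linked and Y-linked differences in the comparison was not tested. Retroviral replicate 3 had the lowest mean correlation with the other 9 lines (Spearman 0.901, against 0.917 to 0.946). Retroviral replicate 1 and lentiviral OSKM replicate 5 had only 55.3 and 62.1 CPM of Col4a1, a chain of type IV collagen, where the remaining 8 of these lines had at least 5100 CPM. Some fibroblast genes were highest in lentiviral OSKM replicate 5, with Col1a1, a chain of fibrillar collagen, at 196 CPM and the surface protein gene Thy1 at 40.0 CPM. Others were highest in a retroviral line, such as Col6a1, which reached 190 CPM there and at most 140 CPM in lentiviral OSKM lines. Col1a1 was at 51.5 CPM in retroviral replicate 1 and did not exceed 0.735 CPM in the other 8 lines. The sum over 20 fibroblast genes ran from 110 to 1130 CPM in retroviral and from 148 to 2180 CPM in lentiviral OSKM lines, and 2 of these genes had no count in any retroviral line.

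The comparison of delivery routes asked which protein-coding genes differ between lines made with the same factors. Few did in the main fit: the quasi-likelihood test of edgeR, with Benjamini-Hochberg adjustment over 15483 genes, called 12 of 12963 protein-coding genes (0.0926%), 7 higher (0.054%) and 5 lower (0.0386%) in retroviral lines. Genes of the extracellular matrix and its chondroitin sulphate chains (Vcan, Chpf) fell together with the secreted Cpxm1, the interferon-induced Ifit2 and Raet1d, a ligand gene of a natural killer cell receptor. Carnmt1, Stk3 and Pwwp2a rose, as did 4 genes that have near-identical copies elsewhere in the genome. Among all tested protein-coding genes 6625 were higher and 6338 lower, and the median log2 fold change was 0.012. The number called depended on the method: DESeq2 called 377 protein-coding genes, and edgeR with protein-coding genes alone in the fit called 3. The main fit also called 27 genes that are not protein-coding, 26 of them pseudogenes.

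Without any adjustment, 934 protein-coding genes (7.21%) were higher and 860 (6.63%) lower at p below 0.05. CPM ranges were separate for 425 genes (3.28%), 216 of them higher (1.67%) and 209 lower (1.61%) in retroviral lines. All 12 genes that passed were among these, but as they were picked by p, that their groups did not overlap carries no weight. The same holds below for list members picked by p. With retroviral replicate 1 and lentiviral OSKM replicate 5 left out, 4 protein-coding genes passed, 2 of them (Vcan and Gm15013) among the 12, and without retroviral replicate 3 there were 9, 7 of them among the 12. When the same retroviral lines were set against the lentiviral SKM lines instead, 12 of 12886 protein-coding genes (0.0931%) passed. Both comparisons use the retroviral lines, so their gene lists are not independent.

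Of the genes that passed, 7 had no other gene at least 95% identical over 50% of the longest transcript. Vcan encodes versican, a large matrix proteoglycan that carries chondroitin sulphate chains (chr13:89655312-89742509, minus strand, GRCm38). Its level was 4.30, 12.2, 9.17, 9.95 and 6.67 CPM in retroviral replicates 1 to 5 and 156, 205, 63.4, 166 and 53 CPM in lentiviral OSKM replicates 1 to 5. Every retroviral line lay below every lentiviral line, by a wide gap. The log2 fold change was −3.93 (SE 0.45, edgeR adjusted p = 0.00618), and the gene passed whichever library was left out (10 of 10 fits). The antisense gene Gm4117 overlaps Vcan and averaged 0.306 and 0.398 CPM.

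Chpf encodes chondroitin polymerising factor, which helps to lengthen the chondroitin chain (chr1:75474569-75479307, minus strand). It was at 59.7, 63.2, 38, 43.2 and 46.6 CPM in retroviral and 98.1, 120, 121, 113 and 150 CPM in lentiviral OSKM replicates 1 to 5. The groups did not overlap, and the drop was smaller than that of Vcan (log2 fold change −1.26, SE 0.18, edgeR adjusted p = 0.0164). It missed the threshold without retroviral replicate 4 (adjusted p = 0.0761) and without lentiviral OSKM replicate 2 (0.0658).

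Cpxm1 encodes a secreted protein of the carboxypeptidase family (chr2:130390775-130397574, minus strand). It was at 20.7, 56.2, 26.6, 40.1 and 26.0 CPM in retroviral and 142, 128, 119, 173 and 71.1 CPM in lentiviral OSKM replicates 1 to 5. The highest retroviral line, replicate 2, still lay below the lowest lentiviral one, replicate 5 (log2 fold change −1.90, SE 0.31, edgeR adjusted p = 0.0393). The gene passed in 3 of 10 fits without 1 library (those without retroviral replicate 2 or 5 or lentiviral OSKM replicate 5), with adjusted p from 0.0256 to 0.111.

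Ifit2, one of a family of interferon-induced genes whose products restrict viral RNA, lies at chr19:34550694-34576419 (plus strand). Its retroviral levels were 0.167, 0.215, 0.195, 0.198 and 0.0930 CPM, and its lentiviral OSKM levels 1.71, 1.64, 1.15, 3.67 and 3.96 CPM. All 5 retroviral lines lay close to the floor, while the lentiviral lines were low but well above it (log2 fold change −3.79, SE 0.50, edgeR adjusted p = 0.0115). It missed the threshold only without retroviral replicate 4 (adjusted p = 0.0567) among the fits without 1 library.

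Carnmt1, which encodes the methyltransferase that turns carnosine into anserine, showed the tightest retroviral values of the genes that passed (chr19:18670764-18707200, plus strand). It was at 38.6, 41.1, 39.9, 38.3 and 41.4 CPM in retroviral and 16.5, 21.4, 14.3, 16.6 and 18.7 CPM in lentiviral OSKM replicates 1 to 5. The groups were far apart relative to their spread (log2 fold change 1.19, SE 0.16, edgeR adjusted p = 0.0115). Without lentiviral OSKM replicate 1 the adjusted p was 0.0538.

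Stk3 encodes MST2, a core kinase of the Hippo pathway that restrains growth (chr15:34875496-35178921, minus strand). Its levels were 78.6, 90.6, 84.3, 87.0 and 98 CPM in retroviral and 49.5, 46.7, 37.6, 57.0 and 40.9 CPM in lentiviral OSKM replicates 1 to 5. Groups did not overlap, and the change was under 1 log2 unit (0.92, SE 0.14, edgeR adjusted p = 0.03). It passed in 2 of 10 fits without 1 library (those without retroviral replicate 5 or lentiviral OSKM replicate 4), with adjusted p from 0.0412 to 0.112.

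Pwwp2a, whose product binds nucleosomes with the histone variant H2A.Z, lies at chr11:43681998-43721491 (plus strand). It was at 109, 131, 88.1, 111 and 96.9 CPM in retroviral and 60.3, 54.2, 57.0, 48.7 and 68.4 CPM in lentiviral OSKM replicates 1 to 5. The lowest retroviral line, replicate 3, lay above the highest lentiviral line (log2 fold change 0.89, SE 0.15, edgeR adjusted p = 0.0443). It passed in 3 of 10 fits without 1 library (those without retroviral replicate 3 or 5 or lentiviral OSKM replicate 5), with adjusted p from 0.039 to 0.138.

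**Figure D1:**
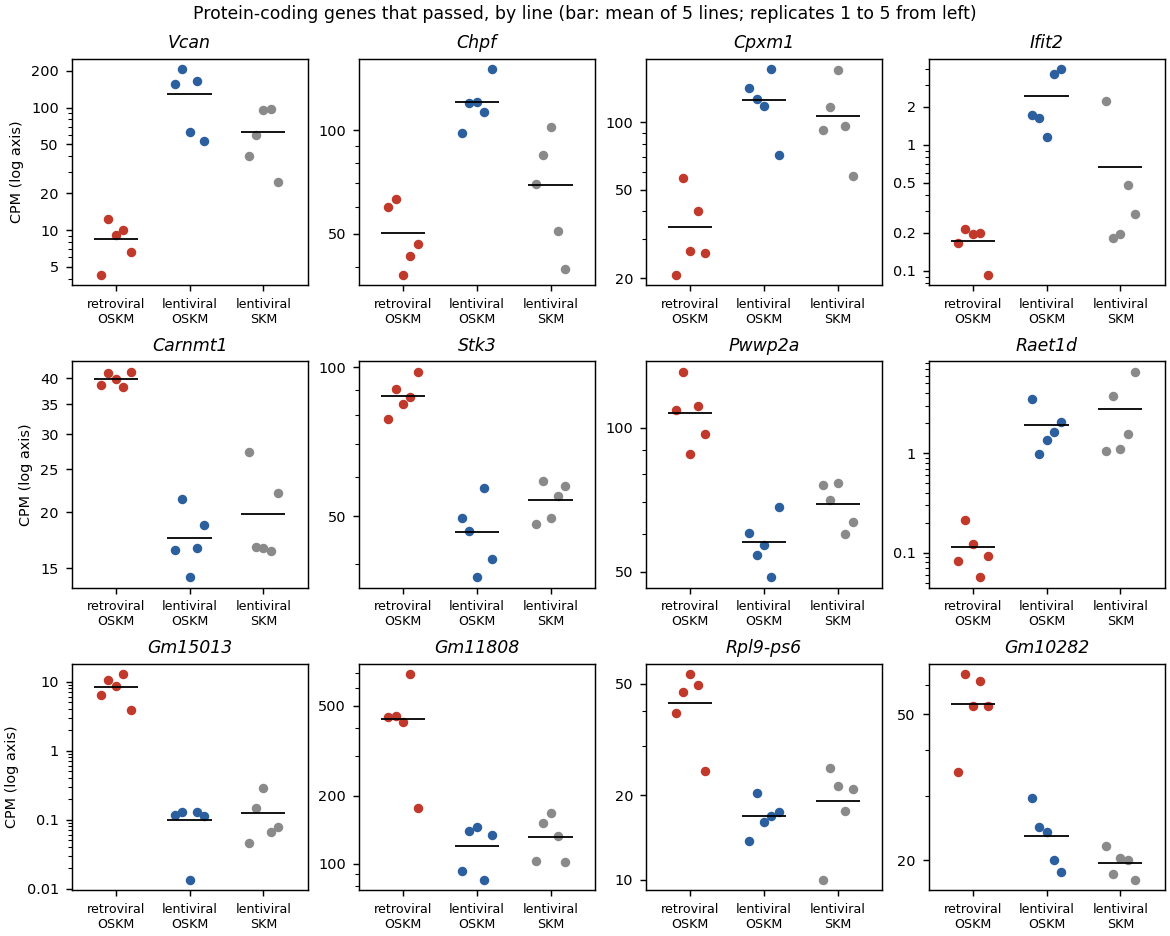
Level in CPM (log axis) of each of the 12 protein-coding genes that passed, for the 5 retroviral OSKM (red), 5 lentiviral OSKM (blue) and 5 lentiviral SKM lines (grey). Points are lines in replicate order and bars are arithmetic means of 5 lines. Red and blue points do not overlap in any panel, and the grey points lie between or across the groups for Chpf and Ifit2.

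The lentiviral SKM lines did not always side with the lentiviral OSKM lines. Vcan ranged from 24.7 to 97.0 CPM in them, above every retroviral line (retroviral over SKM log2 fold change −2.90, edgeR adjusted p = 0.0207). Chpf ranged from 39.5 to 102 CPM and overlapped the retroviral lines (−0.46, adjusted p = 0.424). Ifit2 ranged from 0.181 to 2.22 CPM and overlapped them as well (−1.94, adjusted p = 0.263). For Stk3 the same ratio was 0.71 (adjusted p = 0.0431), for Carnmt1 1.01 (0.055), for Cpxm1 −1.64 (0.0876) and for Pwwp2a 0.64 (0.101). The choice of comparison group thus decided the call for 5 of these 7 genes.

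The other 5 genes that passed have near-identical copies elsewhere, so their reads may be divided between loci in a way that depends on alignment. The stretches of coding sequence below (GENCODE transcripts, GRCm38) show how little separates some of them: each is the 60-base stretch of the aligned coding parts with the most differences, and capitals mark the bases that differ between the pair.
Gm15013, coding bases 183 to 242: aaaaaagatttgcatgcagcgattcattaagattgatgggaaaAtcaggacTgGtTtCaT
Rps4x, coding bases 183 to 242: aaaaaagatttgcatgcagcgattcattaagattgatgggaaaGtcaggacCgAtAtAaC
Raet1d, coding bases 511 to 570: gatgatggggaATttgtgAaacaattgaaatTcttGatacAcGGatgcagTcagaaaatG
Raet1e, coding bases 517 to 576: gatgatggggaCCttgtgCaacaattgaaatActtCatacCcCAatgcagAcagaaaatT
Rpl9-ps6, coding bases 207 to 266: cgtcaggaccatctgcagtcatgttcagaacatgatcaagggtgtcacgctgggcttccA
Rpl9, coding bases 207 to 266: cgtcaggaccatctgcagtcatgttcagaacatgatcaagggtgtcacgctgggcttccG
Across the aligned coding bases, Gm15013 differs from Rps4x at 25 of 787 and Raet1d from Raet1e at 31 of 741. Rpl9-ps6 differs from Rpl9 at 1 of 576.

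Gm15013, an intronless copy of the ribosomal protein gene Rps4x, was at 6.36, 10.4, 8.51, 12.8 and 3.81 CPM in retroviral and 0.117, 0.130, 0.0135, 0.127 and 0.114 CPM in lentiviral OSKM replicates 1 to 5. Every retroviral line held it and every lentiviral line was near the floor (log2 fold change 6.35, SE 0.63, edgeR adjusted p = 0.00202, passing in 10 of 10 fits without 1 library). It lies at chrX:139713681-139714481 on the strand opposite to Tbc1d8b, whose mean was 7.45 CPM in the retroviral group against 13.1 CPM in the lentiviral OSKM group. Rps4x itself was at 1040, 1120, 1480, 1440 and 664 CPM in retroviral and 1020, 816, 921, 1010 and 850 CPM in lentiviral OSKM replicates 1 to 5, so the copy's level was under 1% of the parent's in all 10 lines.

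Gm11808 has 5 near-identical copies by the same criterion. It was at 446, 450, 425, 691 and 176 CPM in retroviral and 92.7, 139, 146, 85.0 and 134 CPM in lentiviral OSKM replicates 1 to 5. Groups did not overlap, with retroviral replicate 5 closest to the lentiviral lines (log2 fold change 1.88, SE 0.32, edgeR adjusted p = 0.0478). Rpl9-ps6, a copy of the ribosomal protein gene Rpl9, was at 39.3, 46.7, 54.0, 49.5 and 24.4 CPM against 13.7, 20.4, 16, 16.8 and 17.4 CPM. Again retroviral replicate 5 was the lowest of its group (log2 fold change 1.35, SE 0.22, adjusted p = 0.0434). Rpl9-ps6 and Gm11808 each passed in 1 of the 10 fits without 1 library, namely without retroviral replicate 5 (adjusted p = 0.00872 for both).

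Gm10282, a copy of Hmgn2, a nucleosome-binding protein gene, was at 34.8, 64.3, 52.7, 61.7 and 52.5 CPM in retroviral and 29.5, 24.7, 23.9, 20 and 18.6 CPM in lentiviral OSKM replicates 1 to 5. The parent Hmgn2 was at 106, 180, 152, 184 and 142 CPM against 116, 106, 124, 88.2 and 90.1 CPM, and its groups overlapped. The copy had a log2 fold change of 1.19 (SE 0.20, edgeR adjusted p = 0.0475) and passed only without retroviral replicate 1 (adjusted p = 0.0322) among the fits without 1 library. Raet1d was at 0.0833, 0.215, 0.122, 0.0566 and 0.0930 CPM in retroviral and 3.50, 0.986, 1.35, 1.61 and 2.04 CPM in lentiviral OSKM replicates 1 to 5. Its levels were near the floor in all retroviral lines (log2 fold change −4.03, SE 0.53, edgeR adjusted p = 0.0115). It missed the threshold without retroviral replicate 4 (adjusted p = 0.0567), and the neighbouring Raet1e, which overlaps it on the same strand, ranged from 0.316 to 12.1 CPM with overlapping groups.

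The factor genes themselves were read with the caveat that vector and endogenous transcripts cannot be told apart in counts per gene. None passed in edgeR. Myc was at 258, 210, 157, 72.2 and 158 CPM in retroviral and 95.2, 104, 39.6, 79.1 and 54.2 CPM in lentiviral OSKM replicates 1 to 5. The 4 highest lines were retroviral, and retroviral replicate 4 lay among the lentiviral lines (log2 fold change 1.2, SE 0.35, 95% interval 0.43 to 1.97, edgeR adjusted p = 0.178). Klf4 was at 398, 231, 46.6, 160 and 401 CPM against 341, 256, 262, 150 and 136 CPM, with full overlap and a lower retroviral replicate 3. The sign of its log2 fold change, 0.11 (SE 0.49), turned under several settings. Among the 4 factors Pou5f1 had the largest fold change, with levels of 74.4, 0.673, 8, 0.113 and 21.9 CPM in retroviral and 0.556, 0.0145, 0.176, 0.0989 and 0.171 CPM in lentiviral OSKM replicates 1 to 5. Retroviral replicate 4 lay within the lentiviral range and the other 4 above it (6.68, SE 1.6, edgeR adjusted p = 0.125, DESeq2 adjusted p = 1.52e-06). Sox2 was at 67.3, 0, 0.0243, 4.98 and 0.0697 CPM against 1.04, 0.87, 0.027, 0 and 0.712 CPM, with overlapping groups (4.77, SE 2.14, edgeR adjusted p = 0.342).

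The genes nearest the threshold on each side, 12 higher and 12 lower with the smallest p among those that did not pass (mean log2 CPM of 1 or more, clone-named genes left out) are given as values. The clone-named Gm7879 (log2 fold change −3.50, adjusted p = 0.0564) and Gm47283 (−2.37, adjusted p = 0.0592) were left out on the lower side by this. Their edgeR adjusted p ran from 0.051 to 0.0939, and because they were picked by p, that their groups did not overlap carries no weight. On the higher side Npm1, a nucleolar chaperone of ribosome assembly, was at 2280, 1800, 4010, 1820 and 1620 CPM in retroviral and 901, 853, 855, 927 and 825 CPM in lentiviral OSKM replicates 1 to 5 (log2 fold change 1.41, SE 0.26, adjusted p = 0.0564). Lentiviral values were tight and retroviral replicate 3 was the highest. Ybx1, an RNA-binding protein gene, had 1010 to 1400 CPM against 506 to 812 CPM (0.91, SE 0.18), and Stmn1, a microtubule regulator, 33.1 to 86.6 CPM against 15.2 to 25.6 CPM (1.37, SE 0.27). Npm1, Ybx1 and Mrpl21 have partial near-identical copies (95.1% over 54%, 96.1% over 57% and 97.2% over 50% of the transcript), which the other 21 of these 24 genes lack. Also on this side, at log2 fold changes between 0.70 and 1.19, were the mitochondrial genes Tmem69 and Mrpl21, Sinhcaf of the Sin3 histone deacetylase complex, the ubiquitin-binding gene Ubxn1, the ribonuclease P subunit gene Pop4, the cell cycle and apoptosis regulator gene Ccar1, the co-chaperone gene Dnajc21, the centrin gene Cetn3 and the phosphatase inhibitor gene Ppp1r14b.

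On the lower side, Mmp2, a secreted protease that degrades type IV collagen, was at 10.7, 6.97, 2.02, 2.52 and 2.63 CPM in retroviral and 15.5, 51.6, 97.6, 32.3 and 40.3 CPM in lentiviral OSKM replicates 1 to 5 (log2 fold change −3.26, SE 0.61, edgeR adjusted p = 0.0564). Col11a1, a minor fibrillar collagen chain, was at most 1.28 CPM in retroviral and 1.6 to 10.3 CPM in each lentiviral OSKM line (−3.20, SE 0.61, adjusted p = 0.058). Alpk1, a kinase that senses a bacterial sugar, had −2.25 (SE 0.42), and the interferon-responsive helicase gene Helz2, at 22.8 to 92.6 CPM against 124 to 244 CPM, had −1.59 (SE 0.34). Pygb, a glycogen phosphorylase, had −1.44 (SE 0.25), and the glycosylation genes St3gal2 and Mgat1 and the tubulin cofactor Tbcd lay between −0.74 and −0.91, as did the cell cycle phosphatase Cdc25b. Tro, Dcbld2 and Dpy19l1, whose products are membrane proteins, had −1.07, −1.05 and −0.73.

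Counts over gene lists describe how far these single genes stood alone. The lists were chosen with earlier results of these data known, so setting their counts beside the background describes them and tests nothing. The first list holds Vcan and Chpf themselves. Among 24 tested genes of chondroitin sulphate proteoglycans and their synthesis, 18 were lower and 6 higher, with a median log2 fold change of −0.46 beside 0.012 for all protein-coding genes. At an unadjusted p below 0.05, 9 were lower (background 6.63%) and 1 higher (7.21%), and Vcan and Chpf passed. Chpf2, a paralogue of Chpf with a similar role, was at 19.7, 16.5, 12, 13.3 and 21.6 CPM in retroviral and 32.6, 33.5, 23.6, 22.0 and 27.4 CPM in lentiviral OSKM replicates 1 to 5. Its groups came close without overlapping (−0.74, SE 0.22, edgeR adjusted p = 0.184). Chst15, a sulphotransferase that oversulphates the chain, ran from 29.3 to 186 CPM against 178 to 247 CPM (−1.0, SE 0.37, adjusted p = 0.263), with retroviral replicate 3 lowest. Dsel and Ust were chosen after their values were seen: Dsel, an epimerase-like gene, had −1.28 (SE 0.38, adjusted p = 0.188), and the sulphotransferase Ust went the other way at 1.14 (SE 0.45, adjusted p = 0.283). Fibroblasts also make many of these products, and the fibroblast list was lower for 8 of 10 tested members (median −0.88). Within it Fbn1, of elastic microfibrils, was at 4.97 to 56.4 CPM in retroviral and 32.5 to 78.7 CPM in lentiviral OSKM lines, and 11 of its 20 genes averaged above 1 CPM in the former and 16 in the latter. The part of fibroblast RNA in the chondroitin list, Vcan included, was not tested.

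Receptors that bind basement membrane and other matrix were lower in 15 of 17 tested cases, with a median of −0.57. At an unadjusted p below 0.05, 5 were lower (background 6.63%) and 1 higher (7.21%), none passing. The collagen receptor Ddr1 was at 23.1, 12.9, 11.4, 16.1 and 20.8 CPM in retroviral and 24.0, 29.3, 27.8, 24.9 and 45.3 CPM in lentiviral OSKM replicates 1 to 5 (−0.84, SE 0.26, edgeR adjusted p = 0.193). The highest retroviral and lowest lentiviral values were nearly equal. The heparan sulphate proteoglycan gene Sdc1 had −1.21 (SE 0.41, adjusted p = 0.22), and the integrin subunits Itga5 and Itgb1, which form the classical fibronectin receptor, had −0.75 (SE 0.29) and −0.51 (SE 0.23). Without retroviral replicate 3, the receptor list had 2 lower members in place of 5 at that p.

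The interferon response list had the lowest median of the pathway lists. Of 28 listed genes 19 could be tested, 16 were lower and 3 higher, the median log2 fold change was −1.14, and 13 were lower (0 higher) at an unadjusted p below 0.05 against a background of 6.63%. Ifit2 alone passed. Most of these genes were low in every line: Usp18, which shuts off interferon signalling, was at 0.0555, 0.0269, 0, 0.368 and 0.0465 CPM in retroviral and 0.556, 4.32, 0.852, 0.791 and 2.46 CPM in lentiviral OSKM replicates 1 to 5. Its groups did not overlap, and all retroviral lines but replicate 4 lay below the floor of 3 counts (−4.17, SE 1.03, edgeR adjusted p = 0.134). The RNA sensor gene Ddx58 (RIG-I) was at 4.27, 1.61, 1.73, 5.01 and 3.67 CPM against 7.01, 12.2, 9.76, 6.24 and 17.0 CPM, again without overlap (−1.68, SE 0.43, adjusted p = 0.142).

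The transcription factors that carry the interferon signal were expressed at higher levels and differed less. Stat2 was at 15.5, 15.9, 12.1, 28.9 and 27.6 CPM in retroviral and 23.7, 46.6, 51.3, 32.7 and 40.1 CPM in lentiviral OSKM replicates 1 to 5, where only lentiviral replicate 1 fell within the retroviral range (−0.96, SE 0.30, edgeR adjusted p = 0.195). Irf9, chosen after its values were seen, had 11.1 to 21.6 CPM against 25.3 to 46.5 CPM without overlap (−0.89, SE 0.24, adjusted p = 0.16). Eif2ak2, the kinase PKR that halts translation on viral RNA, had −0.61 (SE 0.19, adjusted p = 0.201). The exceptions were Isg20 and Cxcl10, at 0.03 and 0.05 with signs that turned under several settings, and Ifitm3 at 2.23, the last with 0.933 to 180 CPM in retroviral lines (SE 1.52). With retroviral replicate 1 and lentiviral OSKM replicate 5 left out, 12 of 19 members were still lower at an unadjusted p below 0.05, and none passed.

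**Figure D2:**
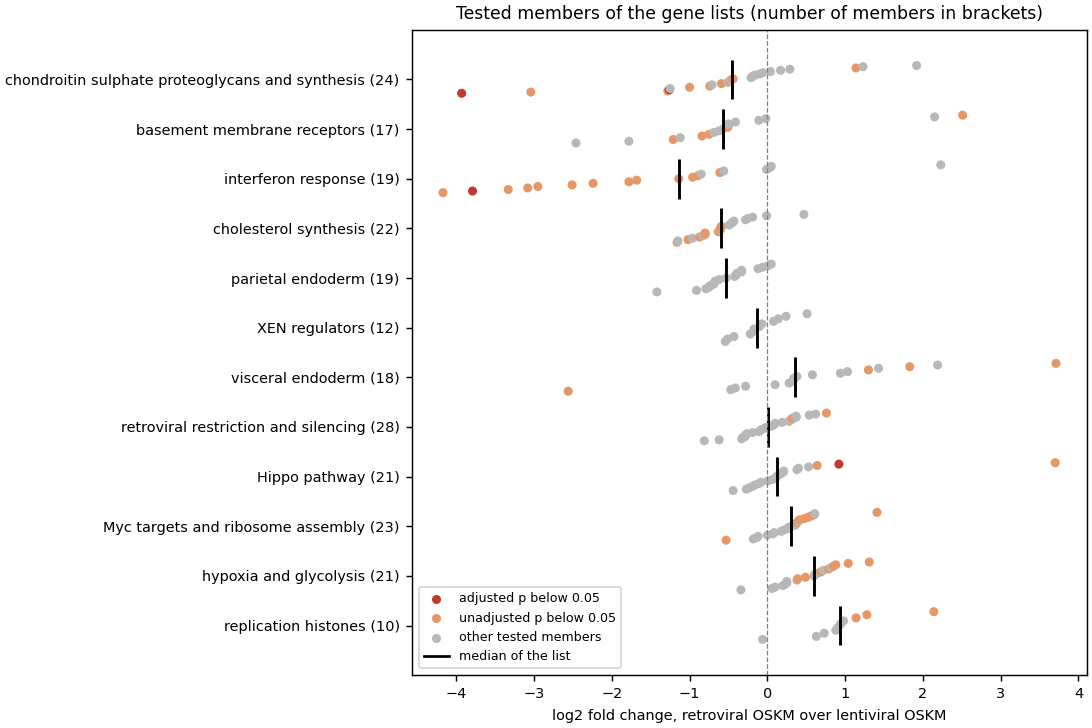
Log2 fold change, retroviral OSKM over lentiviral OSKM, of each tested member of 12 gene lists (number of tested members in brackets), with a black bar at the list's median. Red points passed (adjusted p below 0.05), orange points had an unadjusted p below 0.05, and grey points are the other members. The interferon response list reaches furthest to the lower side, with a median of −1.14, and the replication histones have the highest median, 0.93.

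Genes that act on viral DNA did not follow this pattern as a set, whereas most entry receptors were lower. Among 28 genes of retroviral restriction and silencing, 14 were higher and 14 lower, with a median of 0.01. The nearest to the threshold was Sumo2, a modifier used by the KAP1 silencing machinery, at 208, 259, 268, 223 and 168 CPM in retroviral and 120, 118, 152, 134 and 142 CPM in lentiviral OSKM replicates 1 to 5. Groups did not overlap (0.76, SE 0.16, edgeR adjusted p = 0.0898). The chromatin remodeller Smarcad1 had 0.32 (SE 0.14, adjusted p = 0.344). Of 8 entry receptors 7 were lower (median −0.36), 1 of them at an unadjusted p below 0.05 (background 6.63%), and none passed. That gene was Slc20a1, a phosphate transporter that serves as a receptor for some gammaretroviruses (−0.52, SE 0.19, edgeR adjusted p = 0.253).

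Cholesterol synthesis genes were lower in 21 of 22 cases, with a median of −0.60, and 9 were lower at an unadjusted p below 0.05 (background 6.63%), none passing. Dhcr7, the enzyme of the last step, was at 9.60, 31.8, 19.8, 24.9 and 17.0 CPM in retroviral and 39.1, 39.4, 44.6, 56.6 and 51.5 CPM in lentiviral OSKM replicates 1 to 5 (−1.16, SE 0.28, edgeR adjusted p = 0.128). Hsd17b7, a sterol reductase, had 9.11 to 16.4 CPM against 20.4 to 35.8 CPM (−1.02, SE 0.24, adjusted p = 0.116). Both groups were separate in these genes, with retroviral replicate 1 lowest for Dhcr7. Hmgcs1, a synthase early in the pathway that was chosen after its values were seen, was at 48.6, 90.3, 61.9, 101 and 104 CPM against 141, 132, 152, 173 and 110 CPM, also without overlap (−0.80, SE 0.22, edgeR adjusted p = 0.167). With retroviral replicate 1 and lentiviral OSKM replicate 5 left out, 4 members were lower and 1 higher at that p, and without retroviral replicate 3 there were 6 lower.

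Hypoxia and glycolysis genes lay the other way, 20 of 21 higher with a median of 0.60 and 8 higher at an unadjusted p below 0.05 (background 7.21%), none passing. Vegfa, the angiogenic growth factor gene, was at 525, 278, 652, 254 and 276 CPM in retroviral and 206, 155, 187, 239 and 182 CPM in lentiviral OSKM replicates 1 to 5. Groups did not overlap, and retroviral replicates 1 and 3 were highest (1.04, SE 0.29, edgeR adjusted p = 0.162). The hypoxia-induced Ndrg1 had 184 to 417 CPM against 103 to 177 CPM (0.85, SE 0.25, adjusted p = 0.188), with retroviral replicate 5 highest, and Ankrd37 had 1.31 (SE 0.43, adjusted p = 0.215). Pkm, the last enzyme of glycolysis, had 1870 to 2610 CPM against 1450 to 1730 CPM (0.49, SE 0.17, adjusted p = 0.221). In lentiviral SKM lines Ndrg1 had 205 to 389 CPM, within the retroviral range, and Vegfa 206 to 505 CPM, which spans the ranges of both OSKM groups in part. Without retroviral replicate 3 the list's median was 0.32 and 5 members were higher at that p.

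Of 23 Myc targets and ribosome assembly genes, 19 were higher, with a median of 0.31. At an unadjusted p below 0.05, 7 were higher (background 7.21%) and 1 lower (6.63%). The nucleolar gene Nop58 was at 357, 395, 268, 273 and 295 CPM in retroviral and 207, 214, 184, 208 and 235 CPM in lentiviral OSKM replicates 1 to 5, without overlap (0.60, SE 0.16, edgeR adjusted p = 0.144), and Gnl3 had 0.56 (SE 0.18, adjusted p = 0.21). Replication histones, of which the multigene families may share reads, were higher in 9 of 10 cases (median 0.93), 3 of them at that p (background 7.21%). Hist1h2bc had 9.08 to 24.3 CPM against 2.6 to 8.83 CPM (1.28, SE 0.39, adjusted p = 0.19), Hist1h1b 2.14 (SE 0.65, adjusted p = 0.19) and Hist3h2a 1.14 (SE 0.46, adjusted p = 0.293). In the cell cycle list 16 of 22 genes were lower, with a median of −0.08. In the Hippo pathway, 14 of 21 genes were higher (median 0.12). Beside Stk3 these included the scaffold gene Wwc1, at means of 6.32 and 0.486 CPM with groups that overlapped (3.70, SE 0.96, adjusted p = 0.144), and the coactivator Wwtr1, or TAZ (0.64, SE 0.21, adjusted p = 0.219). In the protein-folding stress list 12 of 20 genes were lower and 8 higher, with a median of −0.04. At an unadjusted p below 0.05, 3 were higher (background 7.21%) and 1 lower (6.63%), none passing. The 3 higher ones were Ddit3 at 1.38 (SE 0.43), Ddit4 at 1.23 (SE 0.45) and the asparagine synthetase gene Asns at 0.74 (SE 0.33). Their groups overlapped, with edgeR adjusted p of 0.194, 0.253 and 0.341.

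No gene of the endoderm lists passed. Among 12 regulators 8 were lower and 4 higher (median −0.13), none at an unadjusted p below 0.05, and without retroviral replicate 3 the tally was 5 lower and 7 higher (median 0.06). Parietal endoderm genes were lower in 17 of 19 cases (median −0.53), also with none at that p. Gata6, a founding factor of the lineage, was at 314, 339, 107, 334 and 484 CPM in retroviral and 443, 487, 568, 524 and 270 CPM in lentiviral OSKM replicates 1 to 5, with overlapping groups and retroviral replicate 3 far below the rest (−0.54, SE 0.34, edgeR adjusted p = 0.504). The laminin chain gene Lama1 showed the same low line, at 9920, 10500, 1820, 10900 and 20200 CPM against 23900, 17500, 12500, 18700 and 13100 CPM. Nid2, a laminin-binding basement membrane protein gene, had −0.74 (SE 0.45, adjusted p = 0.487), the collagen chaperone Serpinh1 −0.53 (SE 0.25, adjusted p = 0.358) and the repressor gene Snai1 −0.91 (SE 0.54, adjusted p = 0.47).

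Visceral endoderm genes went in both directions, 14 higher and 4 lower of 18 (median 0.36). Cubn, an endocytic receptor, was at 37.4, 40.1, 17.0, 9.76 and 59.9 CPM in retroviral and 488, 99.7, 45.0, 108 and 229 CPM in lentiviral OSKM replicates 1 to 5. Only retroviral replicate 5 reached the lentiviral range (−2.56, SE 0.66, edgeR adjusted p = 0.144). The homeobox gene Hhex had 1.30 (SE 0.45, adjusted p = 0.235), and Apoe, of lipid transport, had 1.83 (SE 0.72, adjusted p = 0.283) with 190 and 103 CPM in retroviral replicates 3 and 4 and at most 29.3 CPM elsewhere among the 10 lines. Among pluripotency genes Utf1 had 3.92 (SE 1.31, adjusted p = 0.219) and Nr5a2 −2.77 (SE 1.23, adjusted p = 0.34), both at or below 5.42 CPM in all 10 lines. In the fibroblast list Col5a1, Pdgfrb and Fbn1 had −4.24 (SE 1.52), −1.51 (SE 0.60) and −1.33 (SE 0.54), each with overlapping groups. Medians of the other marker lists were 0.11 for trophoblast (7 of 12 genes tested), 0.19 for endothelial (9 of 12) and −0.46 for smooth muscle genes (8 of 10). Haematopoietic (2 of 10 tested), neural (3 of 10) and germline genes (5 of 10) had medians of 0.44, −0.23 and −0.56. No member of these marker lists passed. At an unadjusted p below 0.05, 2 smooth muscle genes and 1 neural gene were lower (background 6.63%) and 1 endothelial gene higher (7.21%). Without retroviral replicate 3 the endothelial median was −0.14.

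The remaining pathway lists had no member that passed. Their medians were 0.37 for FGF and ERK feedback, 0.46 for Wnt targets, 0.34 for mitochondrially encoded genes, 0.16 for DNA methylation, 0.09 for nuclear respiratory chain genes, −0.01 for BMP and TGF-beta response, −0.04 for both imprinted and protein-folding stress genes and −0.11 for the p53 response. The FGF and ERK median was −0.02 without retroviral replicate 1 and lentiviral OSKM replicate 5, and the mitochondrially encoded one was −0.02 with GC and length trends removed. Without retroviral replicate 3 the medians of the BMP and TGF-beta and the protein-folding stress lists were 0.07 and 0.09.

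Lentiviral OSKM lines resembled each other more than they resembled retroviral lines, whereas retroviral lines did not resemble each other more than lentiviral ones. Over tested protein-coding genes the mean Spearman correlation of log2(CPM + 0.5) was 0.921 within the retroviral group, 0.950 within the lentiviral OSKM group and 0.927 between them. The difference of within, averaged over both groups, and between, 0.00836, was reached by 6 of 252 assignments of the lines to groups (one-sided exact permutation p = 0.02381). It did not hold at that level without lentiviral OSKM replicates 1 to 5 in turn (0.00427, 0.00357, 0.00366, 0.00486 and 0.00731, with exact p = 0.1429, 0.1825, 0.1746, 0.1349 and 0.0873). Retroviral replicates 1, 2, 4 and 5 correlated more with the lentiviral lines on average (0.918, 0.949, 0.945 and 0.930) than with the other retroviral lines (0.914, 0.936, 0.934 and 0.914). Replicate 3 did the reverse, with 0.895 and 0.908.

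**Figure D3:**
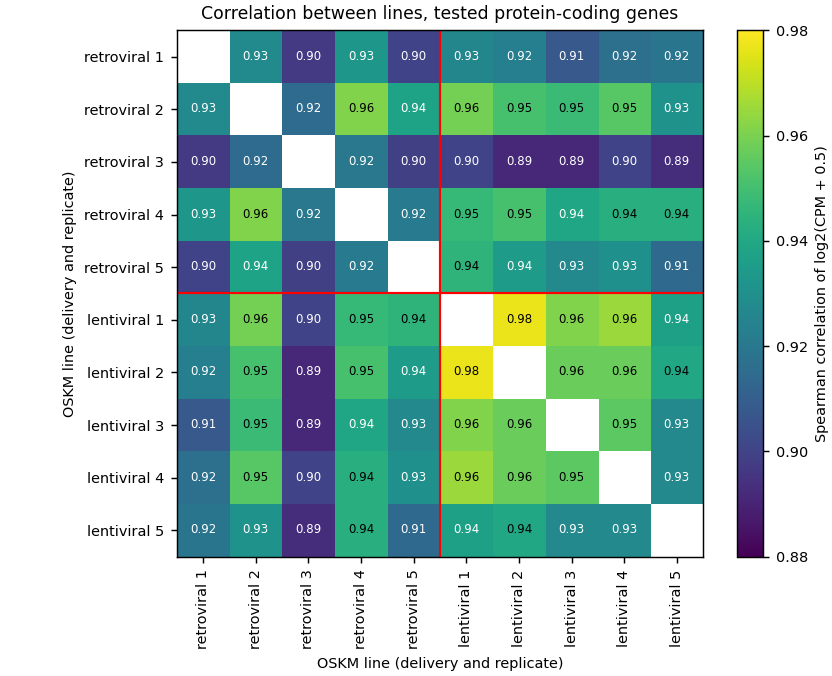
Spearman correlation of log2(CPM + 0.5) over tested protein-coding genes for each pair of the 10 OSKM lines, with the red lines parting retroviral from lentiviral lines. The row of retroviral replicate 3 is the lowest, with values from 0.891 to 0.920, and lentiviral OSKM replicates 1 and 2 form the closest pair, at 0.977.

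Retroviral lines differed more among themselves in these samples, though the test of the spread itself did not pass. The mean of 1 minus the correlation was larger by 0.029 within the retroviral group (two-sided exact permutation p = 0.1746, 44 of 252 assignments). Gene by gene, over 8897 protein-coding genes averaging 10 CPM or more, the SD of log2(CPM + 0.5) was larger in the retroviral group for 6057 genes (68.1%), with a median SD of 0.4 against 0.3. An SD over 1 was found for 748 genes in the retroviral and 429 in the lentiviral OSKM group. Retroviral libraries were also shallower, and its part in this was not tested.

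Some genes with the most unequal spread were set by single lines. Avil, an actin-binding protein gene, was at 234 CPM in retroviral replicate 1 and at most 1.18 CPM in the other 9 lines, and the surface antigen gene Ly6a was at 605 CPM in the same line and at most 10.8 CPM elsewhere. Pdpn, the podoplanin gene, was at 0.632 CPM in retroviral replicate 3 and no lower than 186 CPM elsewhere. The secreted phosphoprotein gene Spp1 was at 441 CPM in lentiviral OSKM replicate 5 and at most 1.89 CPM in the others. The imprinted growth factor gene Igf2 was at 629 and 115 CPM in retroviral replicates 3 and 4 and at most 5.58 CPM elsewhere. Ctsh, a lysosomal protease gene, was at 0.0278 CPM in retroviral replicate 1, below the floor of 3 counts, while the remaining lines had 13.7 to 499 CPM. Nup62cl had no count in retroviral replicate 3 and was at 4.00 CPM in replicate 5, against 81.2 to 229 CPM in the other lines, and the imprinted transcription factor gene Plagl1 was at 0.0486 and 0.511 CPM in the same 2 lines and from 29.1 to 341 CPM elsewhere.

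Whole chromosomes also shifted in single lines. The shift is the median over a chromosome's protein-coding genes (averaging 10 CPM or more) of log2(CPM + 0.5) minus the gene's median over the 10 lines. In retroviral replicate 5, chromosome 12 was higher by 0.62 over 307 genes and chromosome 14 by 0.55 over 323 genes, and chromosome 8 was at −0.35. Each of these held in all 5 segments of the chromosome. Lentiviral OSKM replicate 1 had chromosome 16 at 0.51 over 289 genes, with 95.8% of the genes on that side, whereas lentiviral OSKM replicate 5 had it at −0.37. Retroviral replicate 2 had chromosomes 9 and 3 at 0.37 and 0.35, retroviral replicate 4 chromosome 14 at −0.35, and lentiviral OSKM replicate 5 chromosome 6 at 0.37. Chromosome 4 in lentiviral OSKM replicate 4 was at −0.53 with 4 of 5 segments on that side. No autosome or chromosome X moved by more than 0.16 between the groups in the median log2 fold change of its tested genes, and DNA copy number was not measured.

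**Figure D4:**
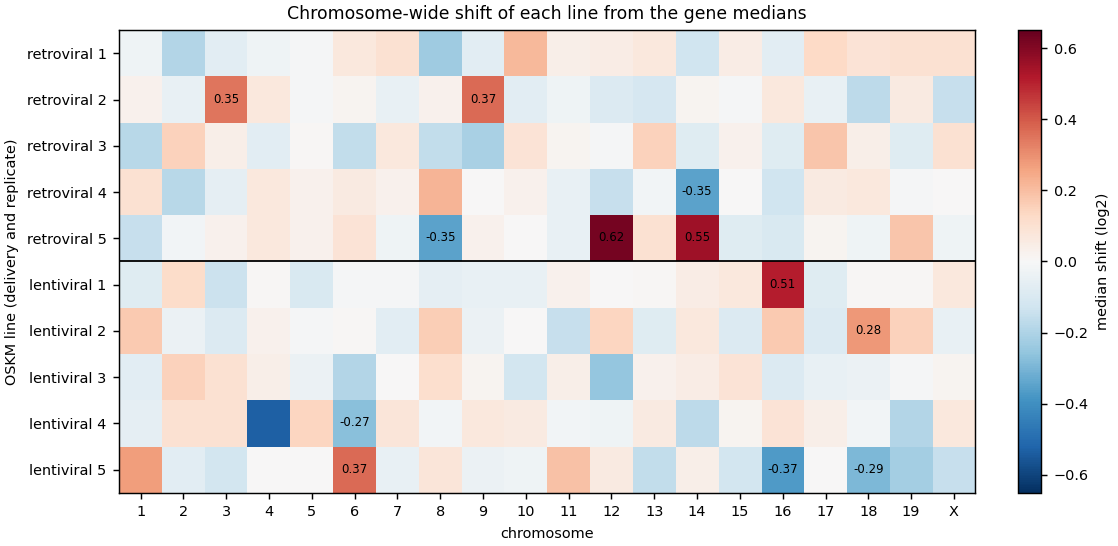
Median shift (log2) of each chromosome in each of the 10 OSKM lines from the gene medians over the lines, red for higher and blue for lower. Numbers mark shifts of at least 0.25 that held in all 5 segments of the chromosome, the largest being 0.62 for chromosome 12 in retroviral replicate 5.

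Fold changes also tracked properties of the transcripts. Across 12955 protein-coding genes, which are not independent replicates, the Spearman correlation of the log2 fold change was −0.13 with the GC content and −0.15 with the length of the longest transcript. Over 5 bins of equal size, the median log2 fold change ran from 0.15 at the lowest to −0.07 at the highest GC content, and from 0.15 at the shortest to −0.10 at the longest transcripts. With both trends removed per library, a fit added after the data were seen, 14 protein-coding genes passed, 10 of them among the 12. Stk3 and Gm10282 then missed the threshold (edgeR adjusted p = 0.0546 and 0.0691).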

How the data were processed

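Polyadenylated RNA was sequenced from a stranded mRNA kit, per the labels' protocols. The authors deposited whole-number counts of reads for each gene, one table per delivery route, made with Trimmomatic 0.39, HISAT2 2.1.0, SAMtools 1.9 and HTSeq 0.11.2 on mm10, per the submitters' processing notes. The annotation used for counting and its strand setting are not stated there or in the labels. Overlapping and antisense genes are therefore uncertain. Library sizes and tests exclude HTSeq's 5 summary entries, and genes held 70.7% to 77% of the entries of the 10 libraries.

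Symbols, types and positions came from GENCODE M21 (GRCm38), which matched 42548 of 43432 identifiers. The 10 libraries were fitted in edgeR 4.0.16 (R 4.3.3): TMM scaling, filterByExpr with a minimum count of 10, quasi-likelihood F test, Benjamini-Hochberg adjustment over 15483 genes, threshold 0.05. CPM uses TMM factors over all 15 libraries, and the SE is the absolute log2 fold change over the square root of F. The fit was tested on simulated counts. Near-identical copies of named genes were sought with BLAST+ 2.17.0 (95% identity over 50% of the longest transcript), a search added after the data were seen, as were the counts over lists by setting and the GC and length offsets. Named genes are the 4 factors, protein-coding genes that passed, the 12 next on each side by p at an average log2 CPM of at least 1 (clone names left out unless they passed), members of 33 lists (those that passed, up to 3 by p and up to 3 by level) and 8 genes of unequal spread, of which some are not reported here. The members and lists were chosen with earlier results of these data known. Alternatives were DESeq2 1.42.0, limma 3.58.1 voom, other scalings, filters and sample sets, thinning, a replicate block, each library left out, and GC and length offsets.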

Additional observations from a re-analysis of the deposited data

Results flagged for a closer look

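In groups of 5 lines, a line was marked when its gap to the nearest other line exceeded 0.71 of the group's range (Dixon's criterion). Gap and range were taken on log2(CPM + 0.5), while the levels below are given in CPM. Chance flags about 1 in 20 groups. Here 17 of 226 gene and group pairs (113 genes) were marked, but the genes include some chosen for unequal spread, so this share cannot be set against chance. Retroviral OSKM replicate 3 was the low line for Helz2 (22.8 CPM, the others 65.1 to 92.6), Irf9 (11.1 CPM, 18.2 to 21.6), Gata6 (107 CPM, 314 to 484), Serpinh1 (2250 CPM, 3260 to 3780), Snai1 (5.35 CPM, 68.8 to 105) and Pdpn (0.632 CPM, 320 to 424). Retroviral OSKM replicate 1 was the high line for Avil (234 CPM, the others 0.43 to 0.827) and Ly6a (605 CPM, 0.377 to 2.09). In retroviral OSKM replicate 5 Ndrg1 was at 417 CPM (184 to 223 in the others) and Spp1 at 0.883 CPM (0 to 0.122). Usp18 was at 0.368 CPM in retroviral OSKM replicate 4 (0 to 0.0555 in the others). Among lentiviral OSKM lines, Gm15013 was at 0.0135 CPM in replicate 3 (0.114 to 0.13 in the others), Pkm at 1730 CPM in replicate 4 (1450 to 1500) and Spp1 at 441 CPM in replicate 5 (0.352 to 1.89). Retroviral replicate 1 had 51.5 CPM of Col1a1 against at most 0.735 CPM in the other retroviral lines. Lentiviral OSKM replicate 5 had 196 CPM of Col1a1 against at most 0.29 CPM in its group, and 62.1 CPM of Col4a1 against 10700 to 20400 CPM.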

How the results depend on the processing

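Against 39 genes called in all and 12 protein-coding, DESeq2 called 603 and 377, voom 63 and 17, voom with sample quality weights 225 and 127, and a fit with all 15 libraries 155 and 75. Fewer were called with no filter on low counts (24 and 7) and with retroviral OSKM replicate 1 and lentiviral OSKM replicate 5 left out together (10 and 4, of which 2 protein-coding genes were shared). With protein-coding genes alone in the fit 3 passed, Gm15013, Vcan and Carnmt1. Leaving out 1 library gave 15 to 101 calls in all, 3 to 49 of them protein-coding, the highest without retroviral OSKM replicate 5 and 3 without retroviral OSKM replicate 4. The within-minus-between similarity ran from 0.00357 to 0.0144 over the fits without 1 library, and the difference in spread from 0.0202 to 0.0407. With the replicate number as a block, 3 genes and 0 protein-coding genes passed. Same-numbered lines did not deviate together (correlations −0.16 to 0.02), so the numbers do not pair the lines. Of 113 genes recomputed, the log2 fold changes of 10, none of them called, turned in sign under at least 1 setting, 57 times in all. With voom, voom with weights and the replicate block, Klf4 was at −0.15, −0.34 and −0.1, Isg20 at −0.83, −0.25 and −0.67, Cxcl10 at −0.19, −0.08 and −0.05, Col1a1 at 0.13, 0.92 and 1.62, Col1a2 at 0.24, 1.32 and 1.96, Nanog at 0.24, 0.08 and 0.12 and Ly6a at −0.36, −0.25 and −1.19. Without retroviral OSKM replicate 1 and lentiviral OSKM replicate 5, Klf4 was at −0.26, Isg20 at −0.44, Cxcl10 at −0.42, Col1a2 at 2.3, Nanog at 0.79 and Ly6a at −1.8. With lentiviral libraries thinned Isg20 was at 0 and Cxcl10 at −0.06, and with GC and length trends removed Cxcl10 was at −0.06 and Col4a1 at 0.14. Leaving out 1 library gave ranges of −0.16 to 0.38 for Klf4, −0.36 to 0.47 for Isg20, −0.37 to 0.52 for Cxcl10, −7.11 to 6.29 for Col1a1, −2.19 to 2.37 for Col1a2, −1.08 to 0.27 for Col4a1, −0.37 to 1.06 for Raet1e, −0.4 to 0.1 for Pdpn, −0.98 to 0.53 for Nanog and −2.22 to 4.91 for Ly6a. Of the list medians 31 values moved by more than the spread between lines and 760 did not. The cause of these differences was not tested. The shallower retroviral libraries limit what can be seen of genes near the floor, such as Ifit2, Raet1d and Usp18.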
